A study of Homo sapiens with 12 samples.

Results

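Expression of 49 genes of mitosis and the mitotic spindle, chosen by name, was compared among 3 groups of human U251-APP cells with 4 RNA-seq libraries each. Of the 49 genes, 39 have a row among the 11178 genes of the table, and all 39 passed the filter on low values (at least 10 on the linear scale in at least 4 of the 12 libraries). The other 10 (TTK, CENPE, CENPF, SMC2, KIF14, KIF18A, KIF20B, ASPM, HMMR and PRC1) were not analysed here. Their longest transcripts have a median length of 6205.5 bases and a median GC content of 37.4%, against 3201 bases and 46.4% for the 39 genes measured.

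U251 is a glioblastoma line of astrocytic origin, and U251-APP cells stably express an amyloid precursor protein (APP) with the substitutions K670N and M671L, which all 3 groups share. Wild type (WT) keeps the CTCF-binding sites called CTCF-A and CTCF-B, CTCF-A KO lacks the first and CTCF-B KO lacks the second. CTCF is a DNA-binding protein that organises chromatin loops, and the study asks which genes change once either site is deleted. For each deletion, cells received Cas9 with guide RNAs to both flanks of the site, puromycin-resistant cells with strong mCherry signal were picked singly, and the clones were genotyped by sequencing the edited region. The labels list CRISPR/Cas9 editing for WT as well, and they do not say whether WT was cloned, how many clones stand behind a group or whether replicates are separate cultures. The p-values therefore measure the spread between these libraries, which may be technical, and clone and genotype cannot be told apart. The promoter that drives the APP transgene is not given in the sources used here.

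The cell line's astrocytic and glioma markers were present: 8 of 9 have a row, among them VIM at 15.49 to 16.03 and SOX2 at 12.30 to 12.91 (normalized expression on the log2 scale, over the 12 libraries). GFAP was at 15.47 to 15.85 in WT and at 12.51 to 12.87 in the 8 knockout libraries. Of 16 markers of blood, epithelium, endothelium, oligodendrocytes and neurons, 2 have a row, KRT18 (8.49 to 8.98) and SNAP25 (5.27 to 6.06).

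Mitosis begins when cyclin B with CDK1 phosphorylates the mitotic machinery. Condensin and topoisomerase II compact and disentangle the chromosomes, kinesins build the spindle, kinetochores attach chromosomes to it, and the spindle checkpoint holds the cell until every chromosome is attached. The anaphase-promoting complex then frees separase, sister chromatids part, and a contractile ring at the spindle midzone divides the cell. Transcription of most of these genes peaks in G2 and M phase. It is repressed in quiescent cells by the DREAM complex and activated in cycling cells by MuvB with B-MYB (MYBL2) and then FOXM1, acting through a promoter element called CHR (cell cycle genes homology region), while CCAAT boxes bind the activator NF-Y. In bulk RNA, fewer cells in G2 and mitosis and less RNA of these genes per cell cannot be told apart.

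Promoter letters were compared with that background because these genes are taught as a co-regulated set. RefSeq promoter windows (GRCh38.p14, 250 bases before to 50 bases after the farthest upstream start of each gene, 300 bases in all) were found for 33 of the 39 measured genes. CHR was searched as TTTGAA, the CCAAT box as CCAAT and the forkhead core as TAAACA, on both strands. Neighbouring matches can share an end base. TTTGAA was present in 22 of 33 windows (66.7%) against 15.5% of the windows of 27305 genes, CCAAT in 24 of 33 (72.7%) against 35.7%, and both in 17 of 33 (51.5%) against 6.13%. At least 2 CCAAT matches were present in 14 windows (42.4%) against 11.3%. TAAACA was present in 1 window, that of CDK1 (3.03% against 12.4%). A match is a description of the letters and not a site, and no match says only that the letters are not in the window. CDC25B, CDC25C, CKAP2 and KIF2C held neither TTTGAA nor CCAAT. The 250 bases before the start are shown for 4 genes with both elements, of which ECT2, KIF11 and DLGAP5 have 3 of the 5 largest falls in CTCF-A KO and KIF4A has the largest fall in CTCF-B KO. They lie at chr3:172750476-172750725 (plus strand) for ECT2, chr10:92592880-92593129 (plus strand) for KIF11, chr14:55191586-55191835 (minus strand) for DLGAP5 and chrX:70289854-70290103 (plus strand) for KIF4A. Each is written 5′ to 3′ on the gene's strand, and capitals mark TTTGAA or CCAAT and their reverse complements TTCAAA and ATTGG.
ECT2: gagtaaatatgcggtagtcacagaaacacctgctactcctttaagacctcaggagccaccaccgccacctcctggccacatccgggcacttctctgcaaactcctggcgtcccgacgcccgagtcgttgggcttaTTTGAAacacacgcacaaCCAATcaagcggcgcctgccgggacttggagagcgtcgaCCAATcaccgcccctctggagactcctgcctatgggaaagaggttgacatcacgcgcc
KIF11: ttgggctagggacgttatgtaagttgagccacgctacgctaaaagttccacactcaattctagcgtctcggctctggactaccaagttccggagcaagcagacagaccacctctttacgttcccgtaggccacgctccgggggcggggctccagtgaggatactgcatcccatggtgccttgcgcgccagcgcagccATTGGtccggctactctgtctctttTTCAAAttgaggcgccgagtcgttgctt
DLGAP5: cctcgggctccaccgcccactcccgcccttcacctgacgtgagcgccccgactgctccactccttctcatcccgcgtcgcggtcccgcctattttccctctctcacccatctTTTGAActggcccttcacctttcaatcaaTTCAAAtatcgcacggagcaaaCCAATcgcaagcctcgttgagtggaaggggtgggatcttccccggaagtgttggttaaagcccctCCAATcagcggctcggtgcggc
KIF4A: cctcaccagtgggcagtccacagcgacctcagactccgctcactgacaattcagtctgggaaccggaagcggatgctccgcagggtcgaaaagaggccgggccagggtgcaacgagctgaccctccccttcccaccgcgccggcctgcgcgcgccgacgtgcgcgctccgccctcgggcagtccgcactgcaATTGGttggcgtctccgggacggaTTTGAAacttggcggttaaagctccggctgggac
The DLGAP5 stretch has a CHR match on each strand and a pair of CCAAT boxes. KIF11 and KIF4A share another layout, an inverted CCAAT box followed by a CHR match close to the start. The CHR match reads TTCAAA in KIF11 and TTTGAA in KIF4A. Genes not shown here have this layout too, among them KIF23, which fell in CTCF-A KO, and ESPL1, which rose. ESPL1 and CDC20 held both elements and rose in CTCF-A KO as deposited. ANLN and NCAPG, also among the 5 largest falls there, held TTTGAA and no CCAAT. KIF4A was called lower in each knockout, and ECT2, KIF11 and DLGAP5 were called lower in CTCF-A KO and not called in CTCF-B KO. No test links these letters to the differences.

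Libraries of CTCF-A KO differed from WT by gene composition, which touches these genes directly. The median difference from the WT mean in the fifth of all genes with the highest GC content, less that in the fifth with the lowest, was 0.91, 0.45, 0.64 and 0.09 (log2) in CTCF-A KO replicates 1 to 4, against -0.12 to 0.08 in WT and -0.08 to 0.03 in CTCF-B KO. CTCF-A KO replicates 1, 2 and 3 stood apart and replicate 4 did not. Of the 39 genes, 26 lie below the median GC content of all genes tested (48.7%). These 26 had a median difference from WT of -0.64, -0.31, -0.50 and -0.08 in CTCF-A KO replicates 1 to 4, whereas the 13 GC-richer genes had 0.12, 0.06, 0.05 and -0.11. After the trend of each library's values with GC content and transcript length was removed, the 26 genes were at -0.31, -0.16, -0.23 and -0.08, and the 13 genes at -0.08, -0.07, -0.13 and -0.14. Both sets were thus below the WT mean in all 4 libraries. WT replicates 1, 2 and 4 were below that mean too, at -0.05, -0.03 and -0.03 for the 26 genes and -0.03, -0.03 and -0.01 for the 13. WT replicate 3 was above it, at 0.08 and 0.05. Values for CTCF-A KO are given as deposited, and also with the trend removed or from replicate 4 alone (the other CTCF-A KO libraries left out) where these change a call or move a value. The part of the GC trend in each result was not tested.

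**Figure D1:**
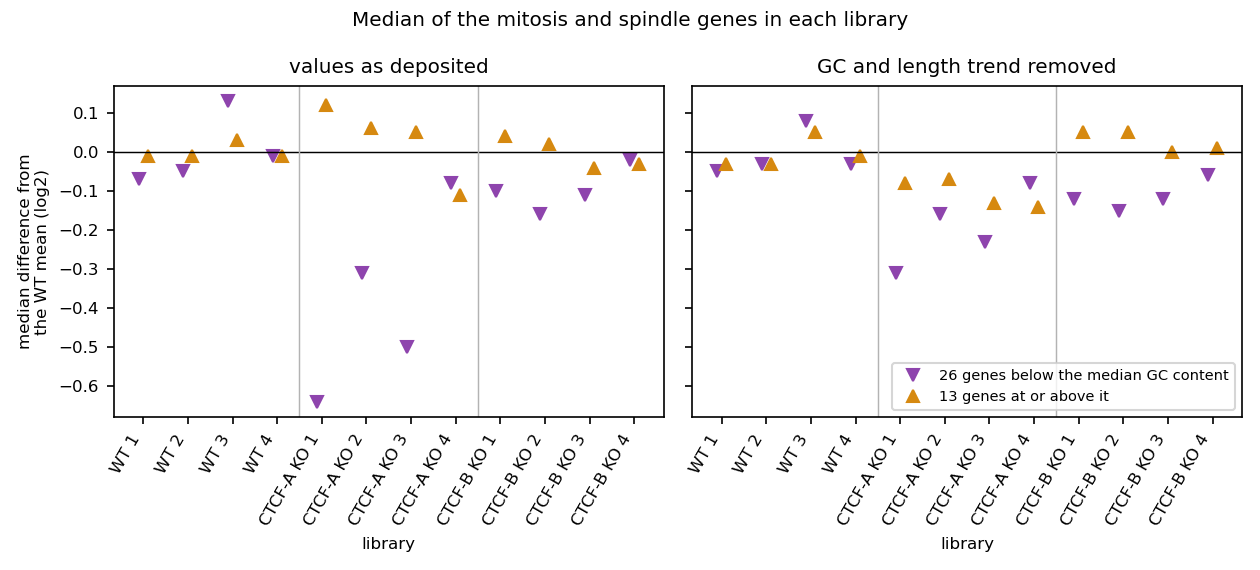
Median difference from the WT mean (log2, vertical axis) of the 26 genes below the median GC content (purple) and the 13 genes at or above it (orange) in each of the 12 libraries, as deposited (left) and with the GC and length trend removed (right). The purple points of CTCF-A KO replicates 1, 2 and 3 sit at -0.64, -0.31 and -0.50 on the left. All 8 CTCF-A KO points are below 0 on the right, as are the points of WT replicates 1, 2 and 4.

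Library by library, WT replicate 3 was the highest WT library for 32 of the 39 genes and the lowest for none. In CTCF-A KO, replicate 4 was the highest library for 18 genes and the lowest for 20. The range over 4 libraries had a median of 0.10 in WT, 0.31 in CTCF-A KO and 0.11 in the other knockout, with a maximum of 0.78, 1.80 and 0.55. TOP2A, the topoisomerase that untangles sister chromatids, had the widest range: it was at 10.6, 11.54, 11.07 and 12.39 in CTCF-A KO replicates 1 to 4 and between 11.67 and 12.27 in WT. Its mean difference of -0.46 ± 0.29 (SE) was not called (adjusted p = 0.187). It was -0.79 without replicate 4 (adjusted p = 0.00236) and 0.54 from replicate 4 alone (adjusted p = 0.049), so the direction rests on which libraries are used.

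**Figure D2:**
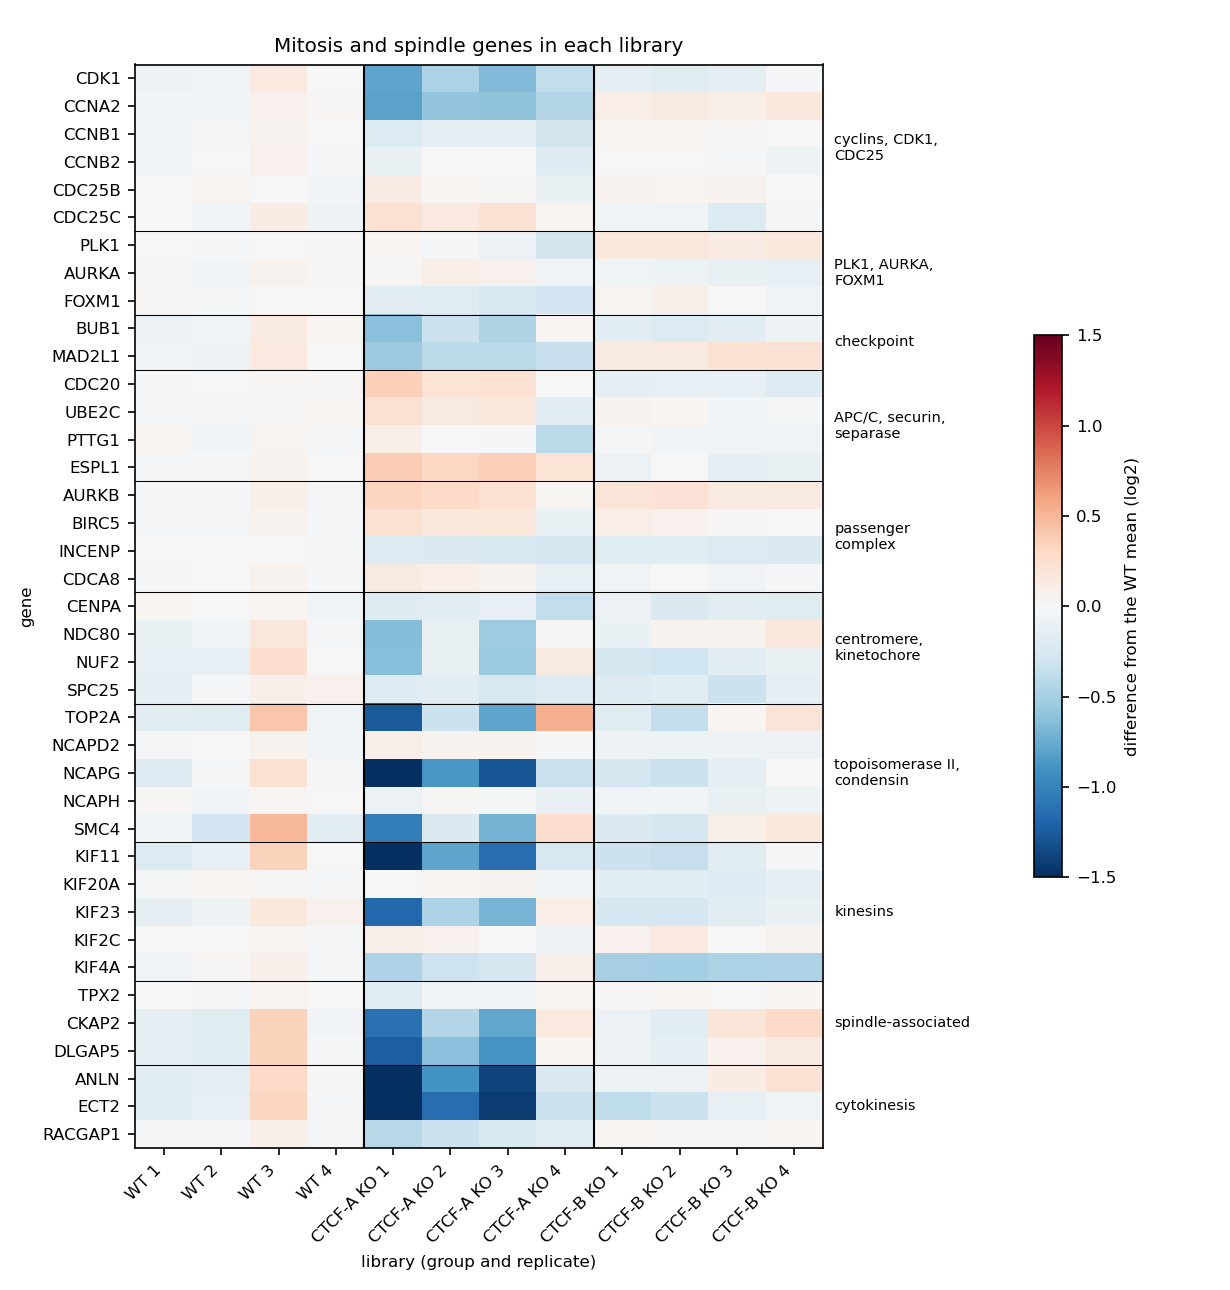
Difference from the WT mean (log2, colour, red higher and blue lower, limited to ±1.5) for 39 genes, ordered by role (rows), in 12 libraries (columns). In CTCF-A KO replicate 1 the darkest blue cells are ANLN, ECT2, NCAPG and KIF11, and WT replicate 3 is the highest WT library for 32 of the 39 genes.

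Many mitotic genes had lower RNA in CTCF-A KO than in WT. Of the 39 genes, 19 fell (48.7%), 4 rose (10.3%) and 16 were not called in CTCF-A KO against WT (limma, Benjamini-Hochberg adjusted p under 0.05, also used for every adjusted p given here). Over all 11128 genes tested, 31.1% fell and 31.8% rose. The members' median difference was -0.21, with a range from -1.19 to 0.31, and the median of all genes was 0.00. On the trend-removed values, 20 fell (51.3%) and 1 rose (2.56%), against 30.0% and 31.5% of all genes, and the median was -0.14. From replicate 4 alone, 14 fell (35.9%) and 2 rose (5.13%), against 21.6% and 20.2% of all genes, with a median of -0.11. In that fit the lone library is assumed to vary like the other groups. Without replicate 4, 23 fell (59.0%) and 7 rose (17.9%), against 35.9% and 37.9% of all genes. The falls shared by the deposited and the trend-removed values were 14 genes: ANLN, CCNA2, CCNB1, CDK1, CENPA, DLGAP5, ECT2, FOXM1, INCENP, KIF11, KIF23, NCAPG, RACGAP1 and SPC25. BUB1, CKAP2, KIF4A, MAD2L1 and NDC80 were called lower only as deposited, and CDC25B, CDCA8, KIF2C, NCAPH, PLK1 and PTTG1 only with the trend removed. All 4 CTCF-A KO libraries lay below all 4 WT libraries for 13 genes (22.1% of all genes tested did so) and above them for 1, ESPL1 (25.7% of all genes).

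Calls in CTCF-A KO rested on single libraries for 5 genes. The call of CDC25C was lost without WT replicate 1, 2 or 4, CTCF-A KO replicate 1, 2 or 3, or CTCF-B KO replicate 1 or 2 (highest adjusted p 0.114), and that of KIF23 without WT replicate 3 or 4 or CTCF-A KO replicate 1 or 3 (0.0631). The call of KIF4A was lost without WT replicate 2 or 3 or CTCF-A KO replicate 1, 2 or 3 (0.0723). For CKAP2 the call was lost without any of WT replicates 1, 3 and 4, CTCF-A KO replicates 1 to 3 and CTCF-B KO replicates 1 to 3 (0.126), and for NDC80 without any of WT replicates 2 to 4, CTCF-A KO replicates 1 and 3 and CTCF-B KO replicates 1 to 4 (0.132). The other 18 calls held in each of the 12 fits that left out 1 library.

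In CTCF-B KO against WT, of the 39 genes 5 fell (12.8%), 3 rose (7.69%) and 31 were not called, against 20.6% lower and 18.9% higher of all genes, so both shares were below the background. The median was -0.06 with a range from -0.49 to 0.18. On the trend-removed values, 10 fell (25.6%) and 4 rose (10.3%), against 25.0% and 28.9% of all genes. KIF20A, KIF4A, INCENP, SPC25 and CENPA fell, and MAD2L1, AURKB and PLK1 rose. All 4 CTCF-B KO libraries lay below all 4 WT libraries for 8 genes (27.3% of all genes tested) and above for 3 (26.2%). The calls of PLK1, AURKB, CENPA and MAD2L1 each depended on single libraries. PLK1 lost its call without any of WT replicates 1 to 4, CTCF-A KO replicate 3 and CTCF-B KO replicates 1 to 4 (highest adjusted p 0.0983). AURKB lost it without any of WT replicates 1, 2 and 4, CTCF-A KO replicates 2 and 3 and CTCF-B KO replicates 1 to 4 (0.113). CENPA lost it without any of WT replicates 1 to 3 and CTCF-B KO replicates 2 to 4 (0.105), and MAD2L1 without any of WT replicates 1, 2 and 4 and CTCF-B KO replicates 3 and 4 (0.0923). The total was 13 without CTCF-A KO replicate 4 (9 lower and 4 higher, against 26.8% and 25.5% of all genes), which enters this comparison through the shared estimate of spread. It was 4 without WT replicate 1 or 2 or CTCF-B KO replicate 3 or 4, and 5 without WT replicate 4 or CTCF-B KO replicate 2. For these last fits the shares of all genes were not counted, so whether the totals only follow the whole table was not tested.

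Compared directly, CTCF-A KO was lower than CTCF-B KO for 14 genes (35.9%) and higher for 7 (17.9%), against 32.6% and 33.4% of all genes. After trend removal the counts were 20 lower (51.3%) and 7 higher (17.9%), against 35.6% and 32.8%. ANLN, ECT2 and NCAPG had the largest differences, -1.15 ± 0.26, -0.97 ± 0.24 and -0.83 ± 0.20 (SE), with adjusted p = 0.00202, 0.00331 and 0.00271. From replicate 4 alone they were -0.26, -0.11 and -0.16, and none was called (adjusted p = 0.146, 0.571 and 0.341). ANLN, CCNA2, CCNB1, CDK1, DLGAP5, ECT2, FOXM1, KIF11, MAD2L1, NCAPG, PLK1 and RACGAP1 were called lower both as deposited and with the trend removed. From replicate 4 alone, CDK1 was -0.24, CCNA2 -0.56, CCNB1 -0.30, PLK1 -0.42, FOXM1 -0.31, MAD2L1 -0.53 and RACGAP1 -0.21. On the same basis KIF11 was -0.03 and DLGAP5 0.02. MAD2L1 was -0.61 as deposited and -0.21 with the trend removed. It was not called with the trend removed and only the libraries compared (adjusted p = 0.0538). CDC25C, AURKA, CDC20, ESPL1, NCAPD2, KIF20A and KIF4A were higher in CTCF-A KO than in CTCF-B KO. Without CTCF-A KO replicate 4, 11 genes were higher and 19 lower, against 38.3% and 37.4% of all genes. The calls of NDC80 (without CTCF-A KO replicate 1 or 3 or CTCF-B KO replicate 2, 3 or 4, highest adjusted p 0.0825) and CKAP2 (without CTCF-A KO replicate 1 or 3 or CTCF-B KO replicate 3 or 4, 0.0761) were lost when 1 library was left out. Both comparisons with WT share the WT libraries, so their values are set side by side here with no result drawn from their overlap.

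**Figure D3:**
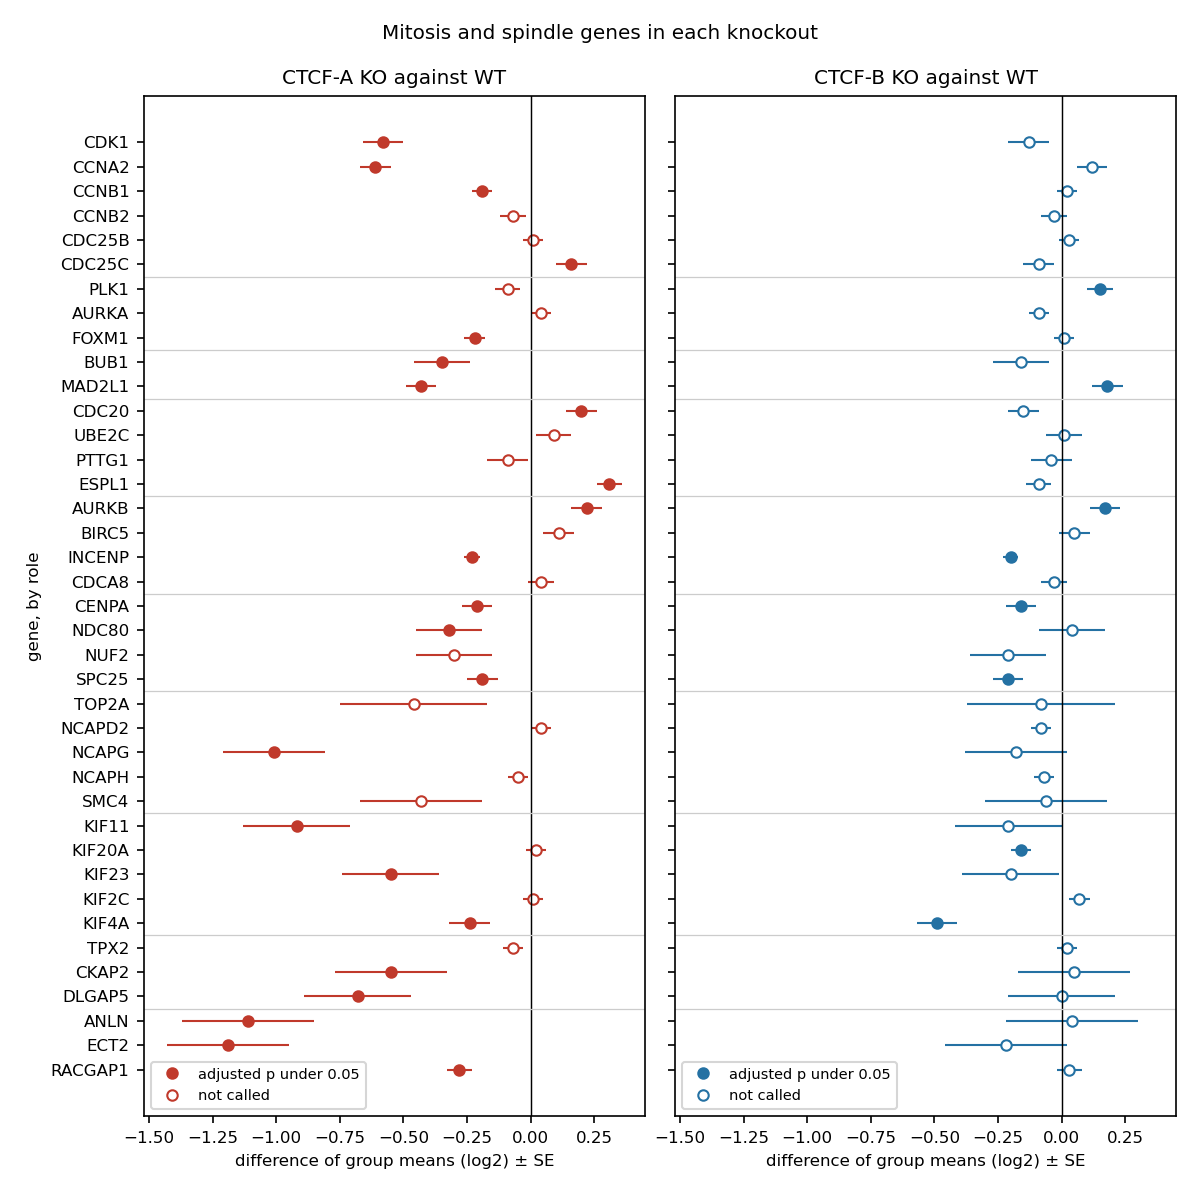
Difference of group means (log2, horizontal axis) ± SE for 39 genes by role, CTCF-A KO against WT (left) and CTCF-B KO against WT (right), with filled points for an adjusted p under 0.05. The left panel holds 19 filled points below 0 and 4 above, and the right panel 5 below and 3 above.

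Cyclins, CDK1 and the CDC25 phosphatases drive entry into mitosis. In CTCF-A KO, 3 of the 6 fell, 1 rose and 2 were not called, and in CTCF-B KO none of the 6 was called as deposited, while CCNA2 and CDC25B were called higher and CDK1 lower with the trend removed. CCNA2 (ENSG00000145386, chromosome 4, 121816444 to 121823933, GRCh38), which encodes cyclin A2 of S phase and early mitosis, was at 11.08, 11.07, 11.18 and 11.14 in WT replicates 1 to 4, at 10.32, 10.53, 10.51 and 10.68 in CTCF-A KO and at 11.22, 11.25, 11.20 and 11.28 in CTCF-B KO. Every CTCF-A KO library was below every WT library and every CTCF-B KO library above it. The difference in CTCF-A KO was -0.61 ± 0.06 (SE), or 0.657 times the WT level, with an adjusted p of 5.26e-06. It was -0.45 with the trend removed and -0.43 from replicate 4 alone, and both were called. In CTCF-B KO it was 0.12 ± 0.06 (adjusted p = 0.15), and it was called with the trend removed (0.11, adjusted p = 0.0106) and without CTCF-A KO replicate 4 (adjusted p = 0.0425). CDK1, the kinase that cyclins A and B activate, fell by 0.58 ± 0.08 in CTCF-A KO (adjusted p = 7.29e-05). Its replicates were at 10.22, 10.53, 10.35 and 10.64, all below the lowest WT library at 10.93. The fall was 0.41 with the trend removed and 0.37 from replicate 4 alone, both called. In CTCF-B KO, CDK1 differed by -0.13 as deposited (adjusted p = 0.245) and by -0.22 with the trend removed (adjusted p = 0.000477). CCNB1, cyclin B1, fell by 0.19 ± 0.04 (adjusted p = 0.000861), and the fall was 0.11 with the trend removed (adjusted p = 0.00728) and 0.28 from replicate 4 alone. CDC25C, a phosphatase that activates CDK1, rose by 0.16 ± 0.06 as deposited (adjusted p = 0.0394), and the difference of 0.10 with the trend removed was not called (adjusted p = 0.105). CCNB2 (cyclin B2) and CDC25B differed by -0.07 and 0.01 in CTCF-A KO as deposited and were not called. With the trend removed CCNB2 was at -0.01, not called, and CDC25B was called lower (-0.16, adjusted p = 8.66e-05). From replicate 4 alone CCNB2 was at -0.19 and CDC25B at -0.11.

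The kinases PLK1 and AURKA mature the centrosomes and the spindle, and FOXM1 is the forkhead factor that activates many genes of this list. In CTCF-A KO, FOXM1 fell and both kinases were not called. FOXM1 (ENSG00000111206, chromosome 12, 2857681 to 2877155) was at 11.93, 11.90, 11.91 and 11.91 in WT, at 11.76, 11.73, 11.68 and 11.62 in CTCF-A KO and at 11.95, 11.99, 11.91 and 11.86 in CTCF-B KO. The CTCF-A KO libraries did not overlap WT, and those of CTCF-B KO did. The difference was -0.22 ± 0.04 (adjusted p = 0.000528), -0.39 with the trend removed and -0.30 from replicate 4 alone. FOXM1 has a GC content of 55.6%, above the median, and the other GC-rich gene to fall was INCENP. PLK1 was at 11.83, 11.77, 11.72 and 11.53 in CTCF-A KO and 11.77 to 11.82 in WT, a difference of -0.09 (adjusted p = 0.16). After trend removal PLK1 was at -0.25 (adjusted p = 1.37e-05), and from replicate 4 alone at -0.27 (adjusted p = 6.62e-05). In CTCF-B KO, PLK1 rose by 0.15 ± 0.05 (adjusted p = 0.0407). AURKA differed from WT by 0.04 in CTCF-A KO, against -0.09 for CTCF-B KO, neither called as deposited, and the -0.11 of CTCF-B KO with the trend removed was (adjusted p = 0.00236).

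Both measured genes of the spindle checkpoint fell in CTCF-A KO as deposited, and neither was called with the trend removed. MAD2L1 (ENSG00000164109, chromosome 4, 120055608 to 120067074), whose product restrains the anaphase-promoting complex until kinetochores are attached, was at 10.45, 10.42, 10.66 and 10.51 in WT, at 9.96, 10.12, 10.10 and 10.16 in CTCF-A KO and at 10.65, 10.65, 10.73 and 10.73 in CTCF-B KO. CTCF-A KO was below WT without overlap, and the lowest CTCF-B KO libraries overlapped the highest WT library. The difference in CTCF-A KO was -0.43 ± 0.06 (adjusted p = 4.97e-05) as deposited, -0.03 with the trend removed (adjusted p = 0.779) and -0.36 from replicate 4 alone (adjusted p = 0.00179). The 3 values differ, and the part of the GC trend in them was not tested. In CTCF-B KO, MAD2L1 rose by 0.18 ± 0.06 (adjusted p = 0.0293), and with the trend removed the 0.19 was not called (adjusted p = 0.0529). BUB1, the checkpoint kinase at the kinetochore, was at 10.36, 10.67, 10.54 and 11.02 in CTCF-A KO and 10.91, 10.93, 11.11 and 11.02 in WT. Its fall of 0.35 (adjusted p = 0.0127) came from replicates 1 to 3, since replicate 4 alone differed from WT by 0.02, and the trend-removed difference was -0.14 (adjusted p = 0.0502).

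Of separase, securin and 2 partners of the anaphase-promoting complex, 2 rose in CTCF-A KO as deposited and 2 were not called, and none of the 4 was called in CTCF-B KO as deposited. ESPL1 (ENSG00000135476, chromosome 12, 53268299 to 53293643), which encodes separase, the protease that cuts cohesin, was at 10.17, 10.19, 10.26 and 10.20 in WT, at 10.59, 10.51, 10.56 and 10.41 in CTCF-A KO and at 10.12, 10.21, 10.06 and 10.09 in CTCF-B KO. All CTCF-A KO libraries were above all WT libraries. The rise of 0.31 ± 0.05 (adjusted p = 0.000176) was 0.16 with the trend removed (adjusted p = 0.00337) and 0.20 from replicate 4 alone (adjusted p = 0.0147), and it was the only rise of the 39 genes called on the trend-removed values. CDC20, the activator that the checkpoint inhibits, rose by 0.20 (adjusted p = 0.0125). It was at 12.51, 12.36 and 12.38 in replicates 1 to 3 and at 12.15 in replicate 4, within the WT range of 12.14 to 12.17, and with the trend removed it differed by -0.01. In CTCF-B KO, CDC20 was at 12.01, 12.04, 12.03 and 11.96, all below WT, a difference of -0.15 that was not called as deposited (adjusted p = 0.0679) and was called with the trend removed (-0.17, adjusted p = 7.52e-05). UBE2C, the ubiquitin-conjugating enzyme of the complex, differed by 0.09 and PTTG1, securin, by -0.09, and neither was called. PTTG1 was at 11.27, 11.19 and 11.15 in CTCF-A KO replicates 1 to 3 and at 10.78 in replicate 4, against 11.14 to 11.22 in WT. The trend-removed difference of PTTG1 was -0.20 (adjusted p = 0.00285). From replicate 4 alone PTTG1 was at -0.41 and UBE2C at -0.18. Without replicate 4, UBE2C was called higher (0.18, adjusted p = 0.000413), so its direction rests on which libraries are used.

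Members of the chromosomal passenger complex, which corrects wrong attachments and guides cytokinesis, did not move together. In each knockout, as deposited, 1 of the 4 rose (AURKB), 1 fell (INCENP) and 2 (BIRC5 and CDCA8) were not called. CDCA8 differed by 0.04 in CTCF-A KO as deposited. It was at 0.10 without replicate 4 (adjusted p = 0.024), -0.10 with the trend removed (adjusted p = 0.01) and -0.12 from replicate 4 alone. BIRC5 differed by 0.11 in CTCF-A KO as deposited and by 0.18 without replicate 4 (adjusted p = 0.000295). It was at -0.04 with the trend removed (not called) and -0.10 from replicate 4 alone. INCENP (ENSG00000149503, chromosome 11, 62123973 to 62153163), the scaffold that activates Aurora B, was at 11.54, 11.54, 11.53 and 11.52 in WT, at 11.34, 11.31, 11.30 and 11.27 in CTCF-A KO and at 11.35, 11.35, 11.33 and 11.32 in CTCF-B KO. Both knockouts were below WT without overlap, and each group spanned at most 0.07. INCENP fell by 0.23 ± 0.03 in CTCF-A KO (adjusted p = 6.03e-05), and it fell by 0.20 ± 0.03 in CTCF-B KO (adjusted p = 0.000351). The trend-removed differences were -0.40 and -0.14, and replicate 4 alone gave -0.27. CTCF-A KO differed from CTCF-B KO by -0.03 as deposited (95% interval -0.10 to 0.04, not called) and by -0.26 with the trend removed (adjusted p = 1.86e-05). AURKB (ENSG00000178999, chromosome 17, 8204733 to 8210600), the kinase of the complex, was at 10.96, 10.95, 11.05 and 10.95 in WT, at 11.30, 11.27, 11.21 and 10.99 in CTCF-A KO and at 11.17, 11.19, 11.11 and 11.11 in CTCF-B KO. In CTCF-A KO replicates 1 to 3 were above WT and replicate 4 was within its range. AURKB rose by 0.22 ± 0.06 in CTCF-A KO (adjusted p = 0.00818), and the difference was 0.01 with the trend removed and 0.01 from replicate 4 alone. In CTCF-B KO it rose by 0.17 ± 0.06 (adjusted p = 0.0451) and by 0.15 with the trend removed (adjusted p = 0.00213).

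Among kinetochore and centromere genes, CENPA and SPC25 were lower in both knockouts. In CTCF-A KO, 3 of the 4 measured genes fell and NUF2 was not called, and in CTCF-B KO, CENPA and SPC25 fell. CENPA (ENSG00000115163, chromosome 2, 26764289 to 26801067), the histone H3 variant that marks centromeres, was at 9.95, 9.93, 9.95 and 9.86 in WT, at 9.73, 9.76, 9.80 and 9.55 in CTCF-A KO and at 9.84, 9.71, 9.77 and 9.74 in CTCF-B KO. All 8 knockout libraries were below the lowest WT library. CENPA fell by 0.21 ± 0.06 in CTCF-A KO (adjusted p = 0.00555), and it fell by 0.16 ± 0.06 in CTCF-B KO (adjusted p = 0.0385), and trend removal gave -0.28 and -0.17. From replicate 4 alone the difference was -0.37. SPC25 (ENSG00000152253, chromosome 2, 168834132 to 168913371), a subunit of the NDC80 complex that grips microtubules, was at 9.10, 9.21, 9.31 and 9.30 in WT, at 9.04, 9.07, 8.99 and 9.04 in CTCF-A KO and at 9.04, 9.07, 8.91 and 9.08 in CTCF-B KO. It fell by 0.19 in CTCF-A KO (adjusted p = 0.00995), and it fell by 0.21 in CTCF-B KO (adjusted p = 0.0108). Libraries of the knockouts overlapped. In CTCF-A KO the trend-removed difference was -0.13 (adjusted p = 0.0301), and -0.19 from replicate 4 alone was not called (adjusted p = 0.0943). NDC80 and NUF2 of the same complex spread widely in CTCF-A KO, NDC80 at 8.6, 9.14, 8.72 and 9.27 against 9.14 to 9.42 in WT. NDC80 fell by 0.32 ± 0.13 (adjusted p = 0.0439) and was not called with the trend removed (adjusted p = 0.138), and NUF2 differed by -0.30 (adjusted p = 0.0985). From replicate 4 alone NDC80 was at 0.02 and NUF2 at 0.14, both opposite in sign to the deposited differences.

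Of the 5 measured genes of chromosome compaction, 1 fell in CTCF-A KO and none was called in CTCF-B KO, as deposited. NCAPG (ENSG00000109805, chromosome 4, 17810902 to 17844862), a subunit of condensin I, was at 9.80, 9.98, 10.23 and 9.98 in WT, at 8.45, 9.13, 8.70 and 9.66 in CTCF-A KO and at 9.73, 9.67, 9.86 and 10.00 in CTCF-B KO. CTCF-A KO was below WT without overlap, replicate 4 being the closest. The fall of 1.01 ± 0.20, to 0.497 times the WT level (adjusted p = 0.000836), was 0.64 with the trend removed (adjusted p = 0.000167), and the difference was -1.23 without replicate 4 and -0.34 from replicate 4 alone, where it was not called (adjusted p = 0.056). Of the other condensin I subunits, NCAPD2 differed by 0.04 and NCAPH by -0.05 in CTCF-A KO as deposited, neither called. With the trend removed NCAPD2 was not called (-0.04). NCAPH was then called lower in CTCF-A KO (-0.10, adjusted p = 0.0106) and in CTCF-B KO (-0.08, adjusted p = 0.0401). SMC4, the condensin ATPase, differed by -0.43 ± 0.24 (adjusted p = 0.13) as deposited and by 0.00 with the trend removed, with replicate 4 at 10.85 and replicates 1 to 3 at 9.57, 10.38 and 9.89, against 10.32 to 11.10 in WT.

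Some kinesins of the spindle fell in each knockout. In CTCF-A KO, KIF11, KIF23 and KIF4A fell among the 5 measured, and in CTCF-B KO, KIF4A and KIF20A. KIF11 (ENSG00000138160, chromosome 10, 92593286 to 92655395), the plus-end motor that pushes the spindle poles apart, was at 10.25, 10.33, 10.80 and 10.45 in WT, at 8.96, 9.67, 9.31 and 10.22 in CTCF-A KO and at 10.14, 10.11, 10.30 and 10.44 in CTCF-B KO. Replicate 4 was 0.03 below the lowest WT library and the other 3 were well below. The fall of 0.92 ± 0.21 (adjusted p = 0.00236) was 0.53 with the trend removed (adjusted p = 0.00108), and replicate 4 alone gave -0.24, not called (adjusted p = 0.262). KIF4A (ENSG00000090889, chromosome X, 70290090 to 70420832), the chromokinesin of the chromosome arms and midzone, was at 11.27, 11.34, 11.40 and 11.30 in WT, at 10.87, 11.02, 11.08 and 11.40 in CTCF-A KO and at 10.83, 10.82, 10.85 and 10.86 in CTCF-B KO. The 4 CTCF-B KO libraries were close to each other and all below WT, while CTCF-A KO replicate 4 was as high as the highest WT library. KIF4A fell by 0.49 ± 0.08 in CTCF-B KO, to 0.712 times the WT level (adjusted p = 0.000518, and -0.46 with the trend removed), the largest change of the 39 genes in that knockout. In CTCF-A KO it fell by 0.24 as deposited (adjusted p = 0.0266), was -0.15 with the trend removed (adjusted p = 0.0513) and 0.07 from replicate 4 alone. KIF20A, the motor that carries the passenger complex to the midzone, fell by 0.16 ± 0.04 in CTCF-B KO (adjusted p = 0.00298) and differed by 0.02 in CTCF-A KO. KIF23, the kinesin of centralspindlin, fell by 0.55 in CTCF-A KO (adjusted p = 0.0234) and by 0.34 with the trend removed (adjusted p = 0.0481), and replicate 4 alone was 0.10 above WT.

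Spindle-associated proteins were not called in CTCF-B KO, and 2 of the 3 fell in CTCF-A KO. DLGAP5 (ENSG00000126787, chromosome 14, 55148112 to 55191678), also known as HURP, which stabilises the fibres at the kinetochores, was at 9.36, 9.34, 9.85 and 9.47 in WT, at 8.27, 8.88, 8.62 and 9.53 in CTCF-A KO and at 9.43, 9.37, 9.57 and 9.64 in CTCF-B KO. Replicates 1 to 3 of CTCF-A KO were below all WT libraries and replicate 4 within them. The fall of 0.68 ± 0.21 (adjusted p = 0.012) was 0.43 with the trend removed (adjusted p = 0.02), and replicate 4 alone differed by 0.02. CKAP2, a microtubule-associated protein, fell by 0.55 ± 0.22 (adjusted p = 0.0427) as deposited and was not called with the trend removed (-0.24, adjusted p = 0.15). From replicate 4 alone CKAP2 was at 0.15, of the opposite sign. TPX2, the activator of AURKA, differed by -0.07 as deposited and was not called, and it was at 0.03 from replicate 4 alone.

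All 3 measured genes of the midzone and cytokinesis fell in CTCF-A KO, on the deposited and on the trend-removed values, and none was called in CTCF-B KO. ECT2 (ENSG00000114346, chromosome 3, 172750682 to 172821474), the exchange factor that activates RhoA at the cleavage furrow, was at 10.86, 10.93, 11.37 and 11.03 in WT, at 9.18, 9.90, 9.62 and 10.72 in CTCF-A KO and at 10.67, 10.72, 10.93 and 10.98 in CTCF-B KO. It had the largest fall of the 39 genes in CTCF-A KO, 1.19 ± 0.24, to 0.438 times the WT level (adjusted p = 0.000998). The fall was 0.83 with the trend removed (adjusted p = 0.000257), and the difference was -1.48 without replicate 4 and -0.33 from replicate 4 alone (adjusted p = 0.1). ANLN (ENSG00000011426, chromosome 7, 36389806 to 36453791), anillin, the scaffold of the contractile ring, was at 11.88, 11.91, 12.33 and 12.07 in WT, at 10.12, 11.15, 10.66 and 11.83 in CTCF-A KO and at 11.97, 11.96, 12.16 and 12.26 in CTCF-B KO. Each CTCF-A KO library was below the lowest WT library, replicate 4 by the least. The fall of 1.11 ± 0.26, to 0.465 times the WT level (adjusted p = 0.00305), was 0.75 with the trend removed (adjusted p = 0.00194) and 0.22 from replicate 4 alone (adjusted p = 0.246). RACGAP1 (ENSG00000161800, chromosome 12, 49976923 to 50033136), the partner of KIF23 in centralspindlin and of ECT2, was at 11.17, 11.17, 11.27 and 11.18 in WT, at 10.78, 10.88, 10.97 and 11.01 in CTCF-A KO and at 11.23, 11.21, 11.22 and 11.23 in CTCF-B KO. Its fall of 0.28 ± 0.05 (adjusted p = 0.000307) was smaller than those of ECT2 and ANLN. It was 0.16 with the trend removed (adjusted p = 0.000438), and it was also called from replicate 4 alone (-0.19, adjusted p = 0.00463).

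**Figure D4:**
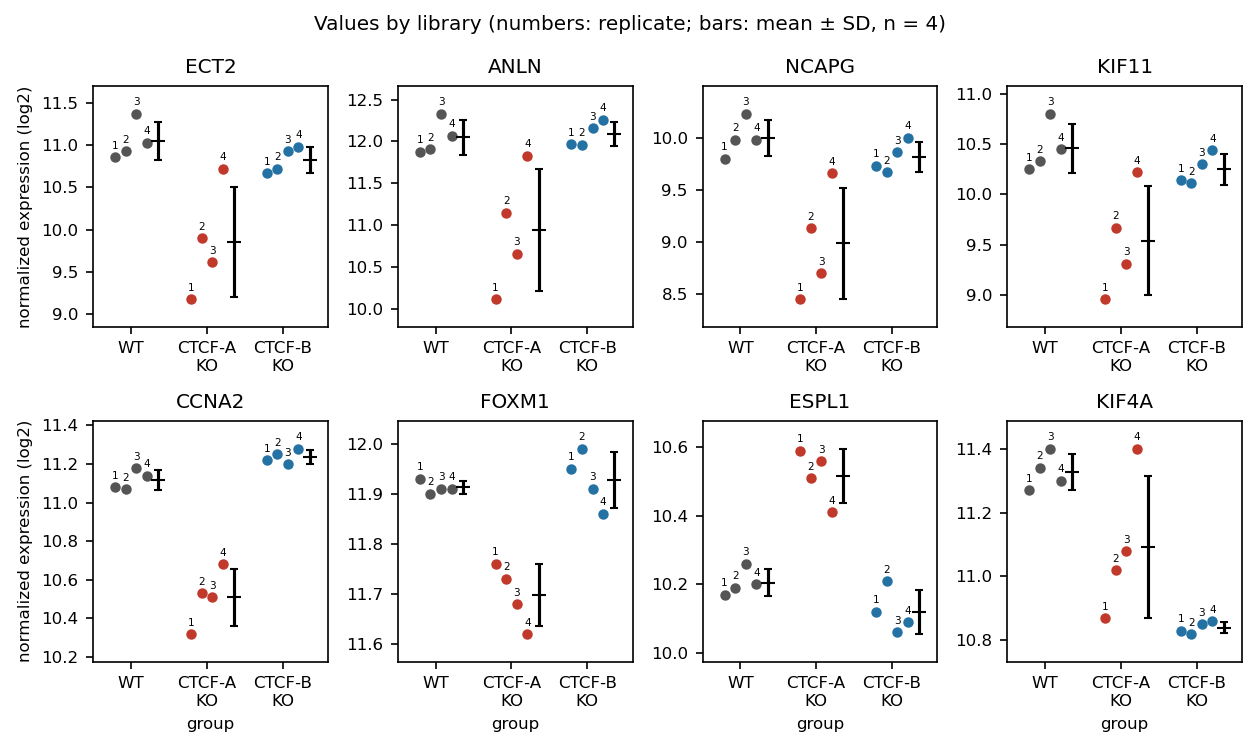
Normalized expression (log2, vertical axis, scaled per gene) of 8 genes in each library, with the replicate number above each point and the mean ± SD of 4 libraries beside it. ECT2, ANLN, NCAPG and KIF11 have replicate 4 as the highest CTCF-A KO library, at 10.72, 11.83, 9.66 and 10.22, CCNA2, FOXM1 and ESPL1 have no overlap between CTCF-A KO and WT, and KIF4A is at 10.82 to 10.86 in CTCF-B KO.

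The signed difference from WT went with GC content in CTCF-A KO, GC-poorer genes being the lower ones. Across the 39 genes, the difference from WT and the GC content of the longest transcript had Pearson's r = 0.73 and Spearman's rho = 0.80 as deposited and 0.36 and 0.36 with the trend removed. In CTCF-B KO they were 0.16 and 0.20. These are descriptions across genes that share libraries and are not independent replicates. Below the median GC content, 17 of 26 genes fell and 1 rose in CTCF-A KO (median -0.33), where 2681 of 5548 genes of the whole table fell and 811 rose (median -0.19). At or above it, 2 of 13 fell and 3 rose (median 0.04), where 771 of 5548 fell and 2726 rose (median 0.16). With the trend removed, 13 of 26 fell and none rose below the median GC content (median -0.15), and 7 of 13 fell and 1 rose above it (median -0.10), where 1618 of 5548 genes of the whole table fell and 1654 rose below it (median 0.00) and 1710 fell and 1853 rose above it (median 0.01).

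**Figure D5:**
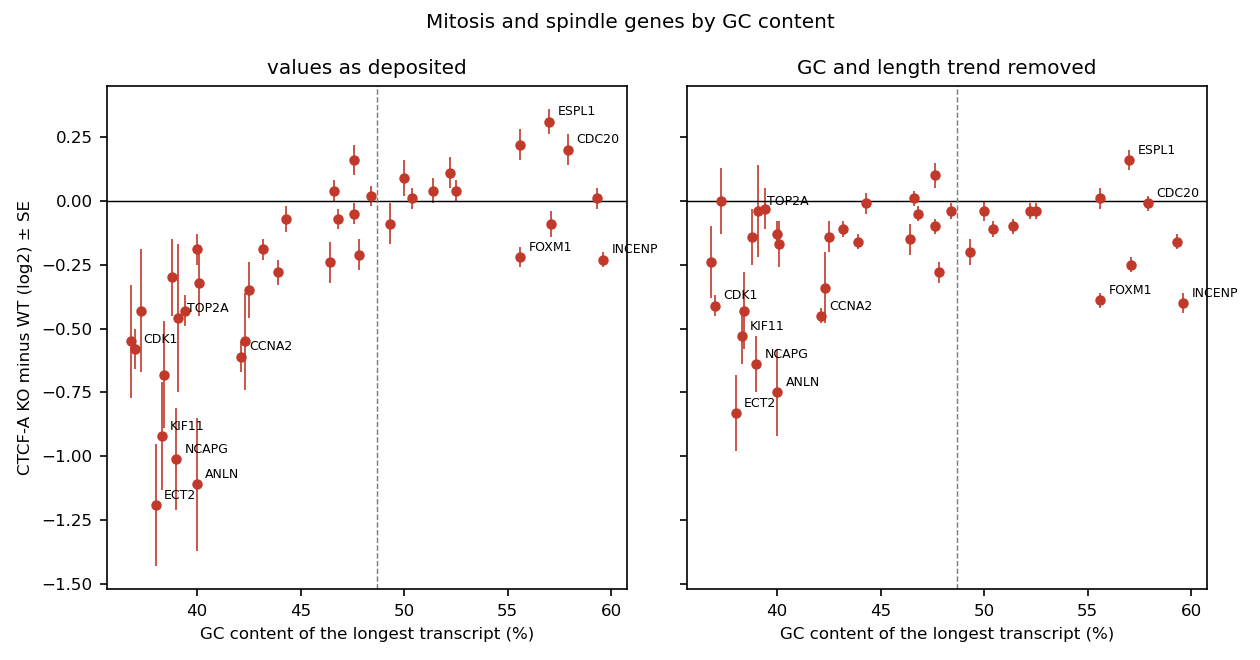
Difference of CTCF-A KO from WT (log2 ± SE, vertical axis) against GC content (%, horizontal axis) for 39 genes, as deposited (left) and with the GC and length trend removed (right). The dashed line is the median of all genes tested at 48.7%. ECT2, ANLN, NCAPG and KIF11 stay the 4 lowest points on the right, and ESPL1 stays the highest.

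Genes near each member on its chromosome were examined beside it. Around KIF4A on chromosome X, the 27 other genes within 5 Mb had a median difference of -0.41 in CTCF-B KO (-0.38 with the trend removed) and 0.12 in CTCF-A KO, beside the -0.49 of KIF4A itself in CTCF-B KO. Around AURKA on chromosome 20, 24 genes had a median of -0.25 in CTCF-B KO, beside -0.09 for AURKA. In CTCF-A KO, the 13 genes around CDK1 had a median of -0.37 (-0.28 with the trend removed) beside -0.58 (-0.41) for CDK1. The 15 around NCAPG had -0.43 (-0.28) beside -1.01 (-0.64), and the 43 around KIF11 had -0.28 (-0.21) beside -0.92 (-0.53). The 19 genes around ECT2 had -0.38, which was -0.10 with the trend removed, beside -1.19 and -0.83 for ECT2. Around ANLN, 28 genes had -0.25, which was -0.08 with the trend removed, beside -1.11 and -0.75. INCENP had 161 neighbours, whose median in CTCF-A KO was -0.01, which was -0.17 with the trend removed, beside -0.23 and -0.40 for INCENP, and -0.12 in CTCF-B KO. Other neighbourhoods went against their gene. The 146 genes around TOP2A had 0.36 (0.26 with the trend removed) beside -0.46 (-0.04), and the 55 around KIF23 had 0.19 (0.21) beside -0.55 (-0.34). The 45 around DLGAP5 had -0.11 as deposited, of the same sign as its -0.68. With the trend removed they had 0.11, opposite in sign to its -0.43. Of the 19 genes that fell in CTCF-A KO, 14 had a neighbourhood median below 0 and 5 above, and of the 20 that fell with the trend removed, 9 had it below 0 and 11 above. The part of neighbouring genes in these results was not tested.

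Other genes of mitosis and its control were counted for comparison. From a list of 130 further genes, 115 have a row, of which 57 fell (49.6%) and 17 rose (14.8%) in CTCF-A KO, against 31.1% and 31.8% of all genes (median -0.16). The 115 include 17 DREAM and MuvB genes, of which 8 fell and 2 rose in CTCF-A KO. They also include 3 cell-cycle inhibitors, of which 1 fell and 2 rose. In CTCF-B KO 29 fell (25.2%) and 11 rose (9.57%), against 20.6% and 18.9% of all genes (median -0.03), so the share that fell was near the background. After trend removal 53 fell (46.1%) and 15 rose in CTCF-A KO, against 30.0% and 31.5% of all genes, and 35 fell (30.4%) and 19 rose (16.5%) in CTCF-B KO, against 25.0% and 28.9%. CTCF-A KO was lower than CTCF-B KO for 51 of the 115 (44.3%) and higher for 28 (24.3%), against 32.6% and 33.4% of all genes. By group, 18 of 27 further spindle and cytokinesis genes fell in CTCF-A KO (66.7%) and 5 rose, and 15 of 32 kinetochore genes fell (46.9%) and 2 rose, beside the same 31.1% and 31.8%. Of 5 further condensin genes, 3 fell and 1 rose, as deposited and also with the trend removed. Of 18 subunits and partners of the anaphase-promoting complex, 5 fell (27.8%) and 3 rose (16.7%), so the share that fell was near that of all genes. Of 11 regulators of mitotic entry, 5 fell and 2 rose as deposited (median -0.22). With the trend removed 4 fell and 3 rose (median 0.02), where 30.0% and 31.5% of all genes did. MKI67 had stood in the condensin list and LMNB1 in the entry list, and both were left out of the condensin and entry counts because they belong to neither. Both remain in the totals over the 115 genes.

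Among them, MKI67, the Ki-67 protein that coats mitotic chromosomes and marks cycling cells, was at 12.84, 12.81, 13.06 and 12.75 in WT, at 11.18, 11.43, 11.41 and 11.81 in CTCF-A KO and at 12.62, 12.56, 12.76 and 12.78 in CTCF-B KO. It fell by 1.41 ± 0.11 in CTCF-A KO (adjusted p = 3.69e-07), by 1.24 with the trend removed and by 1.06 from replicate 4 alone, all called. MKI67 lies at 128096659 to 128126385 on chromosome 10, and in CTCF-A KO the 19 other genes within 5 Mb had a median of -1.12 (-1.02 with the trend removed, -1.16 from replicate 4 alone), with 18 of the 19 called lower. BUB3, the checkpoint partner of BUB1, was at 11.94 to 12.01 in WT, at 12.22 to 12.29 in CTCF-B KO and at 10.82, the lowest library, up to 10.93 in 3 of the 4 CTCF-A KO libraries, with no overlap between groups. It fell by 1.06 ± 0.04 in CTCF-A KO (adjusted p = 1.84e-09) and rose by 0.27 ± 0.04 in CTCF-B KO (adjusted p = 0.000243). It lies at 123154277 to 123170467 on the same chromosome, and in CTCF-A KO its 35 neighbours had a median of -1.19 (-1.02 with the trend removed), with 34 called lower, beside -0.65 for BUB3 with the trend removed. In CTCF-B KO those neighbours had a median of 0.10. Most measured genes around MKI67 and BUB3 thus fell in CTCF-A KO too, and the part of the region in these values was not tested. CENPN, which binds CENP-A nucleosomes, fell by 0.72 in CTCF-A KO and rose by 0.29 in CTCF-B KO. ZWINT, the kinetochore protein that recruits ZW10, fell by 0.18 in CTCF-A KO (0.28 with the trend removed, 0.32 from replicate 4 alone), and it fell by 0.41 in CTCF-B KO. For CTCF-A KO the median over the 25 genes around CENPN, on chromosome 16, was -0.69, and over the 9 around ZWINT, on chromosome 10, it was -0.35. For CTCF-B KO these medians were 0.07 and -0.18.

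The microtubule-destabilising protein STMN1 fell by 0.42 ± 0.04 in CTCF-B KO (adjusted p = 3.33e-06) and by 0.15 in CTCF-A KO, where the trend-removed difference was 0.08, of the opposite sign and not called, and replicate 4 alone gave -0.27. ANAPC4, a platform subunit of the anaphase-promoting complex, fell by 0.80 in CTCF-A KO (0.48 with the trend removed, 0.53 from replicate 4 alone), and ANAPC7 of the same complex rose by 0.33 in CTCF-B KO. TUBG1, gamma-tubulin, rose by 0.44 in CTCF-A KO, PKMYT1, a kinase that inhibits CDK1, by 0.54, and NCAPH2 of condensin II by 0.33. On the trend-removed values these rises were 0.23, 0.36 and 0.13, all called. Genes around them were higher in CTCF-A KO too: the 126 around PKMYT1 (chromosome 16, 2968024 to 2980539) had a median of 0.56 (0.37 with the trend removed), the 140 around TUBG1 on chromosome 17 had 0.36 (0.27) and the 36 around NCAPH2 on chromosome 22 had 0.35 (0.18). Around ANAPC4 on chromosome 4, 12 genes had -0.28 (-0.16). The part of these neighbours was not tested. In CTCF-B KO, NCAPH2 fell by 0.21 and LMNB1, lamin B1 of the nuclear envelope, by 0.31. LMNB1 also fell in CTCF-A KO, by 0.13 as deposited (adjusted p = 0.0186) and by 0.24 with the trend removed (adjusted p = 0.000448).

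Regulators of this gene program were measured as well. Of 17 DREAM and MuvB genes, 8 fell (47.1%) and 2 rose (11.8%) in CTCF-A KO as deposited, and 5 fell (29.4%) and 3 rose (17.6%) with the trend removed, where 30.0% and 31.5% of all genes did. In CTCF-B KO 4 fell (23.5%) and 1 rose (5.88%), the first share being near the 20.6% of all genes. MYBL2 was at 11.67, 11.69, 11.73 and 11.64 in WT, at 11.62, 11.49, 11.39 and 11.23 in CTCF-A KO and at 11.27, 11.20, 11.12 and 11.20 in CTCF-B KO. It fell in both, by 0.25 ± 0.07 in CTCF-A KO (adjusted p = 0.00664), and it fell by 0.49 ± 0.07 in CTCF-B KO (adjusted p = 0.000103), with overlapping knockout libraries. In CTCF-A KO it was -0.44 with the trend removed and -0.45 from replicate 4 alone. CTCF-A KO was above CTCF-B KO by 0.24 as deposited (adjusted p = 0.00827) and by 0.04 with the trend removed (adjusted p = 0.387). LIN9, a MuvB core subunit, differed by -0.28 in CTCF-A KO (adjusted p = 0.0538), against -0.06 for CTCF-B KO. In CTCF-A KO, LIN9 was at -0.03 with the trend removed (not called) and -0.38 without replicate 4 (adjusted p = 0.00426). RBBP4 fell by 0.35 in CTCF-B KO. In CTCF-A KO, RBBP4 differed by 0.04 as deposited (adjusted p = 0.421) and was called higher with the trend removed (0.44, adjusted p = 0.000676). CDKN1A, the p21 inhibitor of cyclin-dependent kinases, was at 9.94, 9.96, 9.92 and 10.00 in WT, at 10.97, 10.73, 10.87 and 10.42 in CTCF-A KO and at 10.33, 10.48, 10.33 and 10.40 in CTCF-B KO. All 8 knockout libraries were above WT, with rises of 0.79 ± 0.09 (adjusted p = 1.31e-05) and 0.43 ± 0.09 (adjusted p = 0.00245), the first being 0.59 with the trend removed and 0.46 from replicate 4 alone. CDKN1B, the p27 inhibitor, fell by 0.30 in CTCF-A KO (adjusted p = 5.7e-05), and it fell by 0.15 in CTCF-B KO (adjusted p = 0.0116).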

How the data were processed

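Total RNA of 12 samples, 4 in each of 3 groups, was sequenced as read pairs, per the labels' protocols. The submitters' processing notes name Trimmomatic 0.33, featureCounts, DESeq2 and build GRCh38.p7; the aligner, annotation, strand setting and the filter behind the 11178 genes are not given in the sources used here. The deposited values are normalized log2 values that run from 1.34 to 17.97. The log transformation is not recorded and the depth of each library is unknown, so no counting interval is given. As the strand setting is not stated, a gene and one overlapping it on the other strand may not be separated.

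The log2 values were used as they stand, without a pseudocount. Genes at 10 or more on the linear scale in at least 4 libraries were kept (11128). Group means were estimated in a single limma fit (version 3.58.1, R 4.3.3) over the 12 libraries (trended empirical Bayes, two-sided tests, Benjamini-Hochberg over all genes, threshold 0.05). The fit was checked on simulated data with independent values, the same spread in every group and no GC trend. That check does not cover the wider spread or the GC trend of the CTCF-A KO libraries. Differences are of group means on the log2 scale with the model's SE. The GC and length trend was removed per library with splines of 5 and 4 degrees of freedom on GENCODE release 29 properties, known for 99.7% of genes. Gene positions are GENCODE release 29 (GRCh38).

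Per-library values are given for the 5 largest called differences in each comparison with WT, the smallest adjusted p of each role group and the 3 largest differences between the knockouts. Other genes of mitosis were named by smallest adjusted p, with MYBL2, LIN9, CDKN1A and CDKN1B. CDK1, TOP2A, PLK1, BUB1, CDC20, PTTG1, SMC4, NDC80 and further members were given values after these were seen. The members, the lists, the tests and the alternatives were chosen with earlier results of these data known.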

Additional observations from a re-analysis of the deposited data

Results flagged for a closer look

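Of 45 sets of 4 libraries (15 genes in 3 groups), 2 held a library far from the others, and chance alone gives about 1 in 20. AURKB in WT replicate 3 was at 11.05, with the other WT libraries at 10.95 to 10.96. RACGAP1 in WT replicate 3 was at 11.27, with the others at 11.17 to 11.18. Both come from the same library, which was the highest WT library for 32 of the 39 genes.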

How the results depend on the processing

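Depth is unknown and no limit from it is given. Shares over all genes were counted for the trend removal, for replicate 4 alone and without CTCF-A KO replicate 4. For the other alternatives given here or above they were not counted. Whether those counts of members only follow the whole table was therefore not tested. CTCF-A KO against WT gave 15 calls at an adjusted p under 0.01. Its 4 higher calls became 10 with library quality weights, 2 at 0.01, 2 from replicate 4 alone, and 1 with the trend removed, alone, with the replicate block or with only the libraries compared. Leaving out 1 library gave 3 to 7 higher calls. For CTCF-B KO (8 calls, 3 higher and 5 lower) the total was 5 when centred on the median gene, 18 with quality weights, 16 with only the libraries compared, 14 with the trend removed, 13 with the replicate block as well, 21 with the trend removed and only the libraries compared, and 3 at 0.01. Leaving out 1 library gave 4 to 13. Higher calls were 5 with quantile normalization, 1 when centred, 1 without a variance trend, 0 at 0.01 and 6 with the trend removed and only the libraries compared, and 0 to 4 with 1 library left out. Lower calls were 14 with weights, 12 with only the libraries compared, 10 with the trend removed, 9 with the replicate block as well, 15 with the trend removed and only the libraries compared, and 3 at 0.01, and 4 to 9 with 1 library left out. CTCF-A KO against CTCF-B KO gave 33 calls with weights, 11 higher and 22 lower, and 7 to 11 higher with 1 library left out.

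From CTCF-A KO replicate 4 alone, DLGAP5 turned to 0.023 against WT and 0.024 against CTCF-B KO, and KIF4A to 0.07 against WT. AURKB in CTCF-A KO against CTCF-B KO turned to -0.156 there and to -0.14 with the trend removed, alone, with the block or with only the libraries compared. The cause was not tested. The trend removal with only the libraries compared was chosen after seeing the data. Of 1110 alternative values for 45 results of named genes, 995 kept sign and side of the threshold, 62 lost the call, 26 gained one and 27 changed sign, of which 20 were called on neither side. Values of these follow. DLGAP5 in CTCF-B KO was 0.013 with quantile normalization, 0.014 when centred, 0.055 with weights and -0.057 to 0.114 with 1 library left out. ANLN there was -0.019 to 0.134 and FOXM1 -0.008 to 0.036 with 1 library left out, and ESPL1 there was 0.042 with the trend removed, alone, with the replicate block or with only the libraries compared. Between the knockouts, SPC25 was -0.006 with weights and -0.024 to 0.032 with 1 library left out, INCENP 0.035 when centred, AURKB -0.023 with quantile normalization, and CENPA 0.014 when centred, 0.035 with weights and -0.085 to 0.001 with 1 library left out.

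The labels do not say what libraries of the same replicate number share. Correlations of same-numbered deviations ran from -0.32 to 0.43. Differently numbered libraries were not compared, so a batch shared by number was not tested. With the replicate block the counts were 19 lower and 3 higher for CTCF-A KO, 5 and 2 for the other knockout, and 14 and 7 between them. The planned pseudocount of 1 was not run, since the values are already on the log2 scale.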
